A study of Mus musculus with 37 samples.

Results

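The 9 genes described here encode heat shock chaperones of the cytosol and the mitochondrial matrix, and they are 9 of the 60708 rows of the count table. In the order of the rule that lists them, they are HSP90AA1 (ENSG00000080824), HSP90AB1 (ENSG00000096384), HSPA8 (ENSG00000109971), HSPA4 (ENSG00000170606), HSPH1 (ENSG00000120694), HSPD1 (ENSG00000144381), HSPE1 (ENSG00000115541), DNAJB1 (ENSG00000132002) and DNAJA1 (ENSG00000086061), each found by its identifier before the dot. The list was selected on measured values, because HSP90AA1 had been seen to be high in some co-culture libraries. HSP90AA1 in every co-culture library, and all 9 genes in the contrast of washed with unwashed co-culture, are therefore described and not tested.

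The libraries come from a culture of wild-type FVB mouse splenocytes, profiled by 3′ mRNA sequencing after 48 h with the mouse macrophage-like line RAW264.7 or with conditioned medium taken from it. RAW264.7 had first been grown for 72 h under 1% oxygen (hypoxia) or 21% oxygen (normoxia), and SPP1 (osteopontin, a secreted glycoprotein) was either absent or added at 1 µg/mL. Each of the 4 combinations was used in 3 ways, named here medium (RAW264.7 medium alone), cells (RAW264.7 cells with their medium left on) and washed (RAW264.7 cells after their medium was washed off), and naive splenocytes made a further group. The 37 libraries thus form 13 groups, of which 11 have 3 libraries, while naive and medium normoxia no-SPP1 have 2 each. By mode these are 11 medium, 12 cells, 12 washed and 2 naive libraries. Brefeldin A, which blocks protein secretion, was added after the 48 h of co-culture and before collection. The study does not state whether naive splenocytes were kept in culture or given brefeldin A. RAW264.7 cells and splenocytes are both mouse cells, so a RAW264.7 transcript that came along in a co-culture library cannot be told apart from a splenocyte one.

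Heat shock chaperones hold client proteins in a foldable state and refold those that have come apart. In the cytosol, DNAJ proteins (HSP40) hand clients to HSP70, the HSP110-type exchange factors reset HSP70, and HSP90 finishes the folding of kinases and receptors, whereas in the mitochondrion HSPD1 and HSPE1 form the folding chamber and its lid. Many of these genes are switched on by heat shock factor 1, which binds repeated short units called heat shock elements near the gene start.

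The deposited counts are of mouse reads placed on human gene identifiers, so a level reflects how well a mouse transcript matched the human gene as well as how much of it there was, and the levels of different chaperones are not compared with each other here. Total counts per library ran from 631574 to 1337314, with a median of 1063211. Levels are given as CPM, each gene's count relative to library sizes scaled by TMM (trimmed mean of M-values). HSPE1 had 0 counts in all 37 libraries, where 3 counts, the limit that a count of 0 allows, would be 2.243 to 4.75 CPM of the total count. Since a mouse transcript can fail to match the human gene, no absence of HSPE1 is read from this, and the other 8 genes were all among the 5193 rows, of 22657 with any count, that passed the low-count filter. In bulk samples such as these, fewer cells of a type and less RNA per cell cannot be told apart.

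Some libraries stood apart from the rest over all 5193 rows, the chaperones included. On the second principal component of log2 CPM, which held 12.3% of the variance, washed normoxia SPP1 replicates 1 and 2, washed hypoxia SPP1 replicate 1 and cells hypoxia no-SPP1 replicate 2 scored 31.75 to 54.39, against -20.96 to 14.17 in the others. On the first (33.2%), replicate 3 of medium normoxia no-SPP1 and replicate 1 of medium hypoxia no-SPP1 scored 10.72 and 11.62, against 41.47 to 57.45 in the other 9 medium libraries. The 4 libraries also detected 7102 to 9132 identifiers, against 8388 to 10852 elsewhere. In no group did 2 libraries agree within sampling noise, as the chi-square per degree of freedom of their counts was 2.86 to 44.2 over 35 pairs.

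Promoter letters were read for the mouse genes from the RefSeq windows of the mouse build GRCm38.p6, 250 bases before each start, and 3 stretches of 30 bases are shown because they hold the heat shock element matches found among these genes. Capitals mark the matched letters, searched as GAANNTTC or TTCNNGAA on both strands. The Hspe1 stretch, on the plus strand at chr1:55088053-55088082, lies before the Hspe1 start and inside an untranslated exon of an Hspd1 transcript, and it belongs to both genes' windows, with its 18 matched bases made of overlapping units and ending 71 bases before the Hspe1 start. The Hsph1 stretch lies on the minus strand at chr5:149636351-149636380, 25 bases before a start, and the Dnaja1 stretch on the plus strand at chr4:40722333-40722362, 116 bases before a start. By GENCODE annotation the Hsph1 match also lies in an untranslated exon of a longer Hsph1 transcript and the Dnaja1 match in an exon of a processed Dnaja1 transcript.
Hspe1: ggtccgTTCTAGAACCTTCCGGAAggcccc
Hsph1: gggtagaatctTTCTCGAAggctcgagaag
Dnaja1: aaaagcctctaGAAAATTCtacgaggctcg
Of the 9 genes, 6 had a window (Hspa4, Hsph1, Hspd1, Hspe1, Dnajb1 and Dnaja1), some more than 1. A match was found in 5 of their 11 windows, in 4 genes, and in 12.8% of all 32851 windows of the same length. The 5 windows are not separate sites, since the 2 Hsph1 windows overlap and hold the same match. An Hspd1 window and the Hspe1 window share theirs as well. The longer run of 3 alternating units occurred in Hspd1 and Hspe1, through the same letters, and in 0.466% of all windows. These matches are descriptions of letters and not of bound sites. Hspd1 and Hspe1 lie head to head on chromosome 1, yet in the counts HSPD1 was read in all 37 libraries, at 819 to 4992 CPM, and HSPE1 in none.

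HSP90AA1, the stress-inducible form of cytosolic HSP90, had the widest range of the genes. Its level ran from 1407 CPM in naive replicate 2 to 53821 CPM in washed normoxia SPP1 replicate 1, a span of 38.3-fold, around a median of 4637 CPM over all 37 libraries. In that highest library, 4.70% of all counts were HSP90AA1 (95% Wilson interval 4.65 to 4.75, counting error only). For the other 7 genes with counts the span was 3.64- to 11.6-fold.

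In 11 of the 12 cells libraries HSP90AA1 was close to one level. In cells normoxia no-SPP1 it was 2261, 2251 and 2275 CPM, and in cells normoxia SPP1 it was 2264, 2218 and 2194 CPM. Cells hypoxia SPP1 had 1955, 2452 and 2326 CPM. Cells hypoxia no-SPP1 had 2521, 28033 and 1829 CPM, so that replicate 2 was far above the other 11 cells libraries, of which the highest had 2521 CPM.

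The washed libraries were spread over the whole range. Washed normoxia no-SPP1 had 8989, 6010 and 8565 CPM, all above every cells normoxia library. Washed normoxia SPP1 had 53821, 29101 and 5689 CPM. Washed hypoxia no-SPP1 had 2325, 12174 and 5232 CPM, and washed hypoxia SPP1 had 43845, 4934 and 2313 CPM. In each of the hypoxia groups 1 of the 3 libraries was thus at the level of the cells libraries and 1 was far above it, so the group means are carried by single libraries.

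The medium libraries all lay between 3346 and 8074 CPM. Medium normoxia no-SPP1 had 6686 and 8074 CPM, and medium normoxia SPP1 had 4442, 4598 and 4936 CPM. Medium hypoxia no-SPP1 had 3346, 5544 and 5571 CPM, and medium hypoxia SPP1 had 5697, 6008 and 4438 CPM. Of the naive libraries, at 4637 and 1407 CPM, the first lay within the medium range and the other below every medium library.

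**Figure D1:**
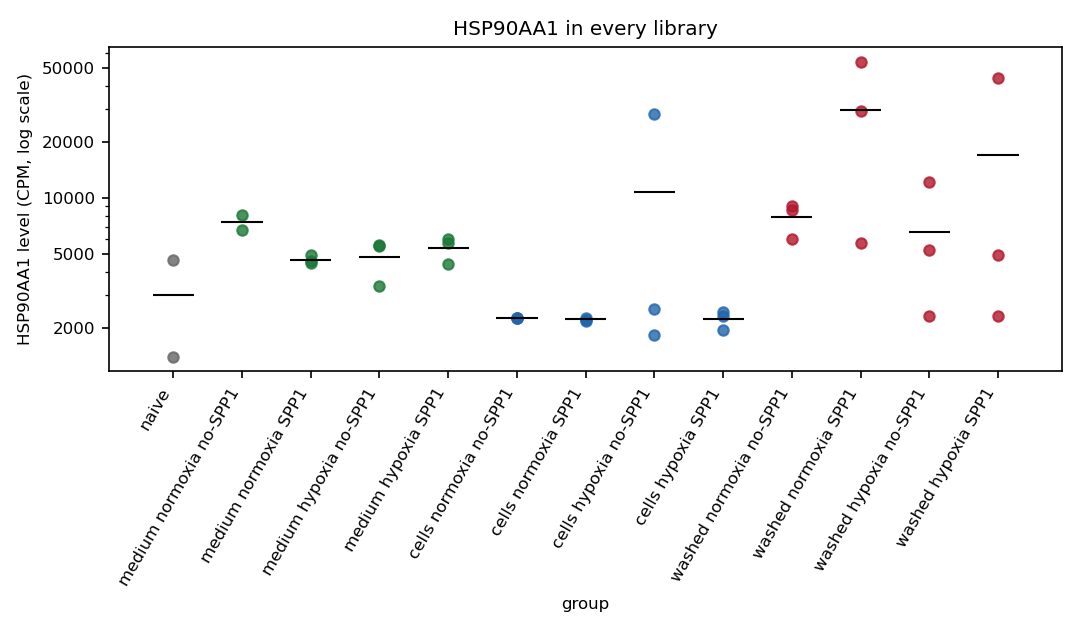
HSP90AA1 in CPM (log axis) in each of the 37 libraries, by group, with 1 point a library and a bar at the group mean. The cells normoxia libraries sit between 2194 and 2275 CPM, while single libraries reach 28033 CPM in cells hypoxia no-SPP1, 43845 CPM in washed hypoxia SPP1 and 53821 CPM in washed normoxia SPP1.

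Ordered by their means, the 13 groups ran from washed normoxia SPP1 (29537 ± 24069 CPM, SD, n = 3), washed hypoxia SPP1 (17031 ± 23259 CPM, n = 3) and cells hypoxia no-SPP1 (10795 ± 14933 CPM, n = 3) at the top to cells normoxia SPP1 (2225 ± 35.7 CPM, n = 3) at the bottom. Washed normoxia no-SPP1 (7855 ± 1612 CPM, n = 3) followed the first 3. In all 12 pairs of neighbours in this order the libraries overlapped in range, so the order of neighbouring groups is not resolved. Groups further apart in the list can be separate, as washed normoxia no-SPP1 was from cells normoxia SPP1. The other genes gave 10 to 12 overlapping neighbour pairs of 12.

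The high HSP90AA1 libraries were not high in every chaperone. HSP90AB1, the constitutively expressed HSP90, had 26722 and 20473 CPM in washed normoxia SPP1 replicates 1 and 2, 29161 CPM in washed hypoxia SPP1 replicate 1 and 22050 CPM in cells hypoxia no-SPP1 replicate 2, and at most 16106 CPM elsewhere. HSPA4, an HSP110-type exchange factor, went the other way, with 222, 299.5, 233 and 237 CPM in the same 4 libraries against a median of 418 CPM over all 37. HSPA8, the constitutive HSP70, had 1080, 772, 2121 and 2481 CPM there, on both sides of its median of 1500.3 CPM.

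DNAJB1 and DNAJA1, both HSP40 co-chaperones that pass clients to HSP70, were above their all-library medians in all 4. DNAJB1 had 29.8, 50.9, 101 and 79.6 CPM, against a median of 21.5 CPM over all libraries. Its values of 29.8 and 50.9 CPM, both from washed normoxia, were nonetheless below the other 4 washed normoxia libraries, at 59.1 to 86.3 CPM. DNAJA1 had 532, 400.1, 689 and 616 CPM, against a median of 262 CPM, and its highest value of all libraries was among these 4. In washed normoxia, however, its 532 CPM lay within the range of the other 4 libraries, 406 to 648 CPM, and its 400.1 CPM below it. Across all 37 libraries, Pearson's r with HSP90AA1 on log2 CPM was 0.893 for HSP90AB1, 0.716 for DNAJA1, 0.688 for HSPD1, 0.596 for DNAJB1, 0.585 for HSPH1, 0.181 for HSPA8 and -0.267 for HSPA4. Spearman's rho was 0.808, 0.626, 0.767, 0.452, 0.6425, 0.160 and -0.005 in the same order. These values describe libraries that share groups and, in part, the features of the libraries set apart.

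**Figure D2:**
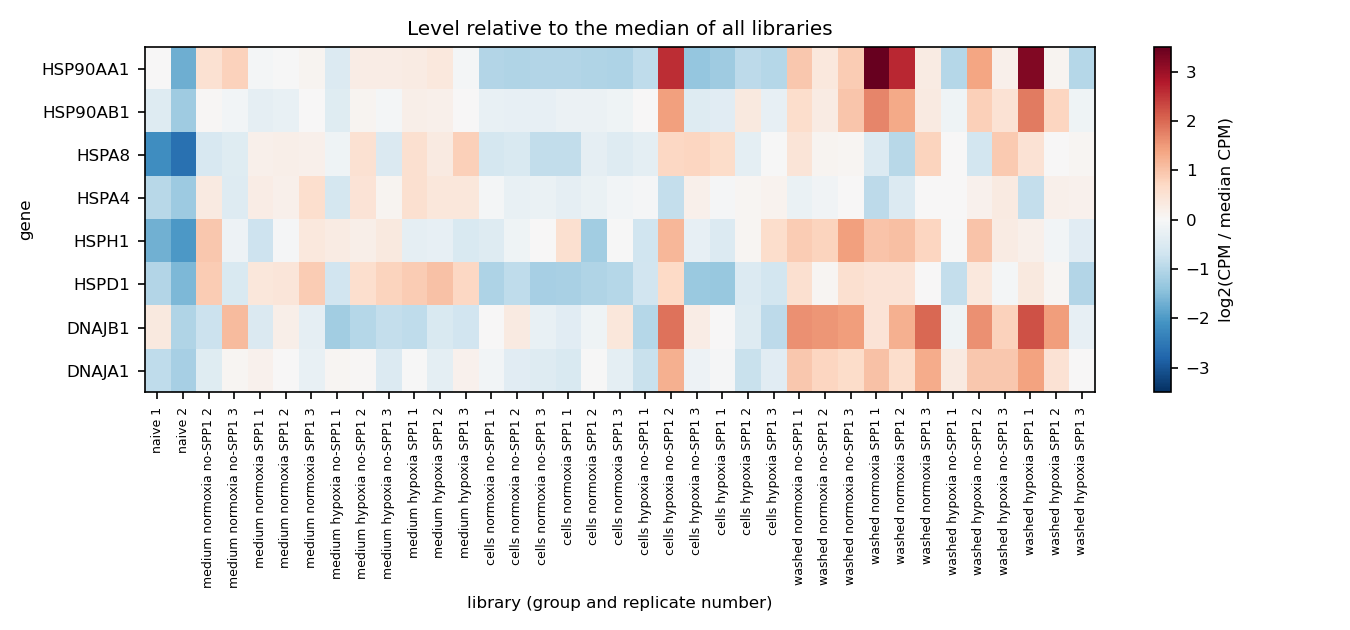
log2 ratio of each library's CPM to the gene's median over all 37 libraries (color), with the 8 chaperones with counts in rows and the libraries in columns by group and replicate. The 2 naive columns are low in HSPA8 and HSPH1, most washed columns are high in DNAJB1 and DNAJA1, and the columns with the highest HSP90AA1 are low in HSPA4.

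Among the 2854 identifiers with a mean log2 CPM of at least 4, those most like HSP90AA1 over the 37 libraries were ENSG00000224411 (r = 0.981) and ENSG00000231434 (r = 0.977), and HSP90AB1 ranked 4. Whether the reads of these rows and of HSP90AA1 come from the same transcripts was not tested, and the sources used here give no gene name for either.

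A pair of further identifiers had been seen earlier to be high in the libraries that stand apart, and they are given beside HSP90AA1 for that reason. ENSG00000210082 had 7456, 1484, 6447 and 1678 CPM in washed normoxia SPP1 replicates 1 and 2, washed hypoxia SPP1 replicate 1 and cells hypoxia no-SPP1 replicate 2, and 287 to 1197 CPM in the other 33 libraries. ENSG00000263934 had 440.3 to 962 CPM in the same 4 and 898 CPM in washed hypoxia no-SPP1 replicate 2, which is also the next library by HSP90AA1. Both rows were thus high in the libraries set apart. Over all 37 libraries Pearson's r with HSP90AA1 on log2 CPM was 0.736 for ENSG00000210082 and 0.657 for ENSG00000263934. Spearman's rho was 0.240 and 0.234 in that order. The part of these rows in the result was not tested.

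**Figure D3:**
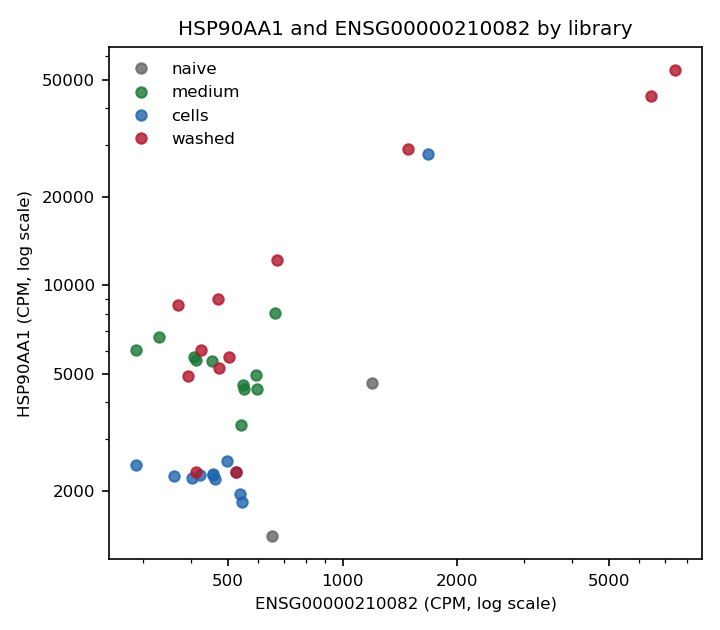
HSP90AA1 against ENSG00000210082, both in CPM on log axes, with 1 point a library colored by mode. The 4 libraries with 28033 to 53821 CPM of HSP90AA1 have 1484 to 7456 CPM of ENSG00000210082, and the other 33 have 1407 to 12174 CPM and 287 to 1197 CPM.

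The first tested question was how the chaperones in cultured splenocytes differed from those in naive ones. Against naive, HSPA8 rose in all 3 modes by the widest margin of the genes tested, and HSPA4 and HSPH1 rose in all 3 as well. In the 2 naive libraries HSPA8 had 334 and 245 CPM, against 1026 to 2686 CPM (median 1711) in medium, 830 to 2534 CPM (median 1186) in cells and 772 to 2834 CPM (median 1586) in washed. No cultured library overlapped the naive ones. On the log2 scale HSPA8 rose by 2.45 (SE 0.40, adjusted p = 1.32e-05) in medium, by 2.23 (SE 0.39, adjusted p = 4.28e-05) in cells and by 2.53 (SE 0.40, adjusted p = 6.64e-06) in washed, all by edgeR's quasi-likelihood test with Benjamini-Hochberg adjustment.

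In medium, 5 of the 8 chaperones rose against naive and none fell, where 17.1% of all 5193 identifiers tested rose and 15.3% fell. HSPA4 was 213 and 172 CPM in naive and 275 to 626 CPM in medium (log2 fold change 1.33, SE 0.29, adjusted p = 0.000636). HSPD1, the mitochondrial HSP60, was 1214 and 819 CPM in naive and 1527 to 4992 CPM in medium (1.81, SE 0.42, adjusted p = 0.00124). HSPH1, the HSP105 exchange factor, was 4.88 and 3.91 CPM in naive, from only 5 and 3 counts, and 9.51 to 30.1 CPM in medium (1.88, SE 0.56, adjusted p = 0.00936). DNAJA1 was 142 and 116 CPM in naive and 189 to 289 CPM in medium, a rise of 0.93 (SE 0.35, adjusted p = 0.0365).

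The remaining 3 did not pass the threshold. On the log2 scale HSP90AA1 gave 0.85 (SE 0.74, adjusted p = 0.383) and overlapped between the modes through naive replicate 1. Its SE, here and in the other medium tests, rests on the spread over all 37 libraries, the high co-culture ones included. No lack of a difference in HSP90AA1 is therefore read from these tests. HSP90AB1 gave 0.75 (SE 0.37, adjusted p = 0.117) and DNAJB1 gave -0.20 (SE 0.55, adjusted p = 0.806). DESeq2 also called 5 higher and 0 lower. The median log2 fold change of the 8 genes was 1.13, beside 0.11 over all identifiers tested.

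In cells, 3 of 7 tested chaperones rose against naive and none fell, where 13.9% of all identifiers rose and 13.4% fell. Besides HSPA8 these were HSPA4, at 237 to 474 CPM (0.99, SE 0.28, adjusted p = 0.00739), and HSPH1, at 6.71 to 35.1 CPM (1.84, SE 0.55, adjusted p = 0.0116). HSPD1, at 971 to 3989 CPM, gave 0.51 (SE 0.38, adjusted p = 0.339). DESeq2 also called 3 higher and 0 lower. Without the 4 libraries set apart 5 of 7 were called. The share of all identifiers called in that fit is not given here, so the 5 are not set against 13.9%. The median over the 7 genes was 0.87, beside 0.04 over all identifiers.

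In washed, all 7 tested chaperones rose against naive, where 17.5% of all identifiers rose and 17.1% fell. HSP90AB1 was 5957 and 3492 CPM in naive and 7342 to 29161 CPM in washed, with no overlap (1.63, SE 0.39, adjusted p = 0.0014). DNAJA1 was 266 to 689 CPM in washed, above both naive libraries (1.85, SE 0.37, adjusted p = 0.000191). HSPH1, at 11.8 to 42.5 CPM, gave 2.38 (SE 0.56, adjusted p = 0.00102). HSPD1, HSPA4 and DNAJB1 gave 1.41, 1.01 and 1.47 (adjusted p = 0.0068, 0.00536 and 0.0439). DNAJB1 overlapped naive, at 17.7 to 101 CPM against 27.3 and 10.4 CPM. Without the 4 libraries set apart all 7 were still called, but the DNAJB1 call was lost in 10 of 21 alternatives, among them the replicate block (adjusted p = 0.0587), with an adjusted p of 0.0118 to 0.417 over the 21. The median over the 7 genes was 1.63, beside 0.04 over all identifiers.

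**Figure D4:**
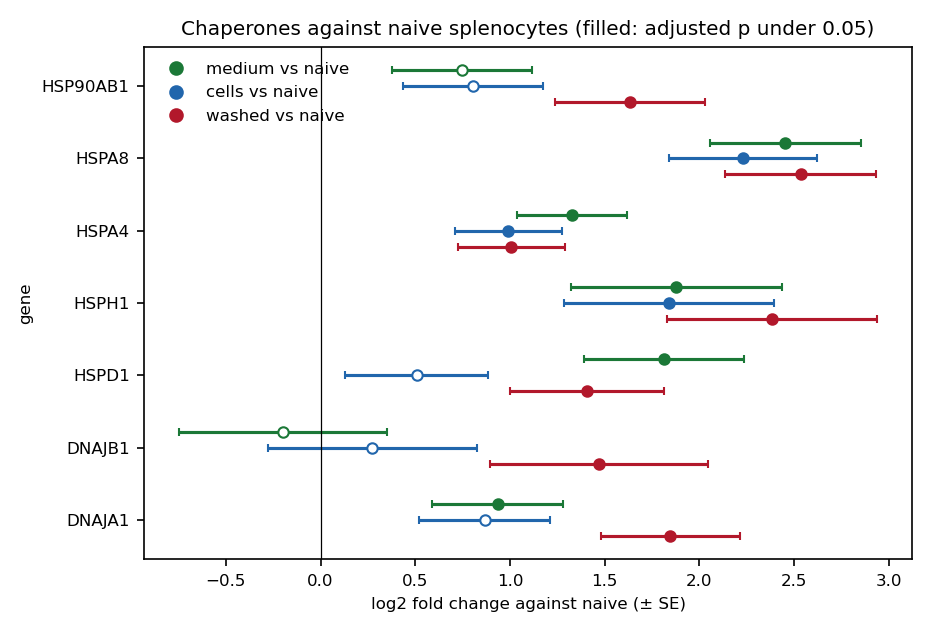
log2 fold change against naive with its SE (bars) for the 7 chaperones tested in all 3 modes, medium in green, cells in blue and washed in red. Filled points passed an adjusted p of 0.05, and HSPA8 sits at 2.23 to 2.53 in all 3 modes while DNAJB1 runs from -0.20 in medium to 1.47 in washed.

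All 3 contrasts share the same 2 naive libraries, so they are not independent of each other. If naive splenocytes were not cultured or given brefeldin A, those differences cannot be told apart from the exposure. The share of all identifiers that were lowest in naive replicate 2 was not computed, so the count that follows is a description. Naive replicate 2, which also had the lowest total count (631574), was lowest of all libraries in 7 of the 8 genes, the exception being DNAJB1. Without it 2 chaperones were called in medium, 1 in cells and 3 in washed, HSPA8 being called in each, with adjusted p = 0.00647, 0.0135 and 0.0037. Without naive replicate 1 medium gave 3 calls. The shares of all identifiers called without a naive library are not given here, so these counts are descriptions.

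The next question was how exposure to the RAW264.7 cells differed from exposure to their medium alone. HSPD1 was lower with unwashed cells, HSP90AB1, DNAJB1 and DNAJA1 were higher with washed cells, and HSPA4 was slightly lower with both. In cells against medium, 0 of 7 chaperones rose and 2 fell, where 23.4% of all identifiers rose and 25.3% fell, so the share that fell was near the background. HSPD1 ran from 1527 to 4992 CPM (median 4031) in medium and from 971 to 3989 CPM (median 1199) in cells, and it fell by 1.31 on the log2 scale (SE 0.20, adjusted p = 1.74e-06). Only cells hypoxia no-SPP1 replicate 2, at 3989 CPM, was above 1767 CPM in cells.

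In medium itself, HSPD1 was 3239 to 4992 CPM in 9 libraries, while the 2 libraries set apart on the first component had 1695 CPM (medium normoxia no-SPP1 replicate 3) and 1527 CPM (medium hypoxia no-SPP1 replicate 1). The same pair had 306 and 275 CPM of HSPA4, against 445.3 to 626 CPM in the other 9. Without the pair the HSPD1 difference was -1.54 (adjusted p = 1.02e-08).

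HSPA4 fell by 0.34 (SE 0.14, adjusted p = 0.0456) in cells against medium, with overlapping ranges. The call was lost in 17 of 31 alternatives. The median over the 7 genes was -0.07, beside -0.02 over all identifiers. No chaperone was higher in cells at an unadjusted p under 0.05 either, and DESeq2 also called 0 higher and 2 lower.

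In washed against medium, 3 of 7 chaperones rose and 1 fell, where 28.6% of all identifiers rose and 30.2% fell. DESeq2 called 5, with 3 higher and 2 lower. DNAJB1 ran from 9.25 to 46.0 CPM (median 13.5) in medium and from 17.7 to 101 CPM (median 59.4) in washed, a rise of 1.67 (SE 0.29, adjusted p = 8.23e-06). DNAJA1 ran from 189 to 289 CPM in medium and from 266 to 689 CPM in washed (0.91, SE 0.18, adjusted p = 3.63e-05). HSP90AB1 ran from 6160 to 9460 CPM in medium and from 7342 to 29161 CPM in washed (0.89, SE 0.19, adjusted p = 0.000176). All 3 had overlapping ranges, and only the lowest washed libraries lay within the medium range.

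HSPA4 fell by 0.32 (SE 0.14, adjusted p = 0.0485), and without the 4 libraries set apart it gave -0.17 (adjusted p = 0.28). Leaving these out also moved HSP90AB1 to 0.48 (adjusted p = 0.00395). HSPH1 (0.51, adjusted p = 0.0565) and HSPD1 (-0.41, adjusted p = 0.0767) did not pass, and HSPA8 gave 0.08 (SE 0.18, adjusted p = 0.713). The median over the 7 genes was 0.51, beside -0.03 over all identifiers.

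**Figure D5:**
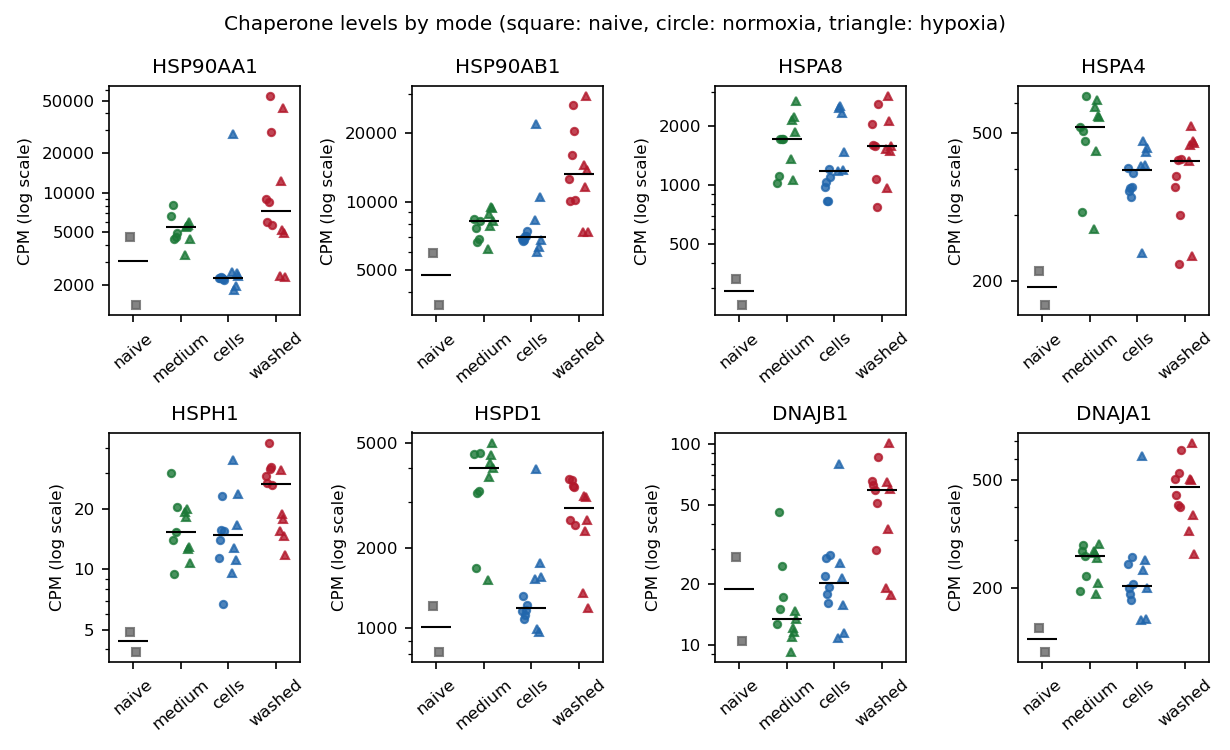
CPM (log axis, 1 panel a gene) of the 8 chaperones with counts by mode, with 1 point a library and a bar at the mode's median. Squares are naive, circles normoxia and triangles hypoxia, and the normoxia circles of washed lie above those of cells in HSP90AA1, HSP90AB1, HSPH1, HSPD1, DNAJB1 and DNAJA1.

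Washed and unwashed co-cultures differ in whether the RAW264.7 medium was left on. The log2 fold change of washed over cells, given as a description, was 1.93 for HSP90AA1, 1.20 for DNAJB1, 0.98 for DNAJA1, 0.90 for HSPD1, 0.83 for HSP90AB1, 0.54 for HSPH1, 0.31 for HSPA8 and 0.02 for HSPA4. That of HSP90AA1 was 1.38 without washed hypoxia SPP1 replicate 1, 2.55 without cells hypoxia no-SPP1 replicate 2 and 1.36 without the 4 libraries set apart.

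The libraries are given by oxygen arm, and the difference between the arms was tested only as the interaction reported with the hypoxia comparisons. After normoxia, 6 of the 8 chaperones with counts had all 6 washed libraries above all 6 cells libraries, which held for 1.87% of all identifiers tested. HSP90AA1, whose rise in co-culture libraries chose the list, is among the 6, so their number is a description and no test. HSP90AA1 was 5689 to 53821 CPM in washed and 2194 to 2275 CPM in cells. DNAJB1 was 29.8 to 86.3 CPM against 16.2 to 28.1 CPM, and DNAJA1 was 400.1 to 648 CPM against 181 to 259 CPM.

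HSPD1 was 2450 to 3639 CPM in washed normoxia and 1087 to 1331 CPM in cells normoxia. HSP90AB1 was 10030 to 26722 CPM against 6704 to 7450 CPM, and HSPH1 was 26.3 to 42.5 CPM against 6.71 to 23.1 CPM. HSPA8 and HSPA4 overlapped. With the 2 washed normoxia libraries set apart left out, 7 of 8 had the 4 remaining washed libraries above all 6 cells libraries. HSPA8 was the one added, at 1586 to 2588 CPM against 830 to 1207 CPM. The share of all identifiers was not computed for these fewer libraries, so the count is a description. Leaving out libraries cannot make separate ranges overlap, so the 6 genes already apart had to stay apart.

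After hypoxia, 0 of the 8 had washed libraries all above the cells libraries, where 0.347% of all identifiers did. Cells hypoxia no-SPP1 replicate 2 was above all 6 cells normoxia libraries in 7 of the 8 genes, HSP90AA1 among them. In the other cells hypoxia libraries this held for 2 to 5 genes, and in the washed hypoxia libraries for 4 to 7. The share of all identifiers was not computed, so these counts are descriptions. With cells hypoxia no-SPP1 replicate 2 and washed hypoxia SPP1 replicate 1 left out, 1 gene no longer overlapped. It was DNAJA1, at 266 to 505 CPM in 5 washed and 151 to 253 CPM in 5 cells libraries. For these fewer libraries too the share of all identifiers was not computed. HSP90AA1 was then 2313 to 12174 CPM against 1829 to 2521 CPM. Over all 6 libraries an arm, the median of washed was 2.13 times that of cells after hypoxia for HSP90AA1, 2.62 times for DNAJB1 and 2.02 times for DNAJA1. After normoxia these were 3.89, 2.95 and 2.33 times. For HSP90AB1, HSPD1, HSPH1 and HSPA4 the ratio after hypoxia was 1.69, 1.58, 1.13 and 1.095, beside 2.06, 2.925, 2.05 and 1.04 after normoxia. HSPA8 was lower in washed after hypoxia, at 0.82 times, and higher after normoxia, at 1.58 times.

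The effect of hypoxia on the RAW264.7 cells was asked within each mode. In cells, 1 of 7 chaperones was called, HSPA8, where 3.62% of all identifiers were called in either direction. HSPA8 in cells normoxia was 830, 1207, 1095, 975, 1043 and 831 CPM. In cells hypoxia it was 1180, 2481, 2534, 2325, 1191 and 1479 CPM. Only the highest normoxia library lay above the lowest of hypoxia, and HSPA8 rose by 0.90 on the log2 scale (SE 0.25, adjusted p = 0.0331). Without cells hypoxia no-SPP1 replicate 2 it was 0.83 (adjusted p = 0.0746), and without all 4 libraries set apart it was 0.84 (adjusted p = 0.0178).

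In medium 0 of 8 chaperones were called for hypoxia, where 0.077% of all identifiers were, and in washed 0 of 7, where 0.0385% were. At an unadjusted p under 0.05 there was 1 in each, DNAJB1 in medium (-0.98, SE 0.43, adjusted p = 0.611) and HSPH1 in washed (-0.81, SE 0.31, adjusted p = 0.495), and DESeq2 also called 0 in both. HSP90AA1 gave -0.20 (SE 0.54, adjusted p = 0.97) in medium.

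Whether the hypoxia effect differed between washed and cells was tested as an interaction. None of 7 chaperones passed, where 0.173% of all identifiers did, and 3 had an unadjusted p under 0.05, HSPD1 (-1.05, SE 0.39, adjusted p = 0.45), HSPH1 (-1.13, SE 0.45, adjusted p = 0.553) and HSPA8 (-0.77, SE 0.35, adjusted p = 0.645). DESeq2 called 0 as well. The 3 were negative, with a smaller or opposite hypoxia effect in washed, and cells hypoxia no-SPP1 replicate 2 enters each of them.

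SPP1 added to the RAW264.7 culture gave no called chaperone in any mode. In medium and cells the RAW264.7 medium, with any SPP1 left in it, also met the splenocytes. There an effect through RAW264.7 and a direct one on splenocytes cannot be told apart. In medium 0 of 8 were called, where 0.25% of all identifiers were, and in washed 0 of 7, where 0.0193% were. In cells 0 of 7 were called, where 0% of all identifiers were. DESeq2 called 0 of the chaperones in each of the 3, and at an unadjusted p under 0.05 there was 1 in medium, HSPA8 (0.62, SE 0.26, adjusted p = 0.461), 1 in washed, HSP90AB1 (0.58, SE 0.26, adjusted p = 0.439), and 0 in cells.

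For the difference of the SPP1 effect between washed and cells 0 of 7 chaperones were called, where 0% of all identifiers were, with HSP90AB1 (0.85, SE 0.37, adjusted p = 0.635) the only one at an unadjusted p under 0.05, and DESeq2 called 0. HSP90AA1, given as a description, was 1.64 higher on the log2 scale with SPP1 in washed and differed by -1.14 in cells. Of the washed SPP1 libraries, however, 3 of 6 had 29101 to 53821 CPM and 3 had 2313 to 5689 CPM, and in cells 1 no-SPP1 library carried the difference. In medium, where HSP90AA1 was tested, SPP1 gave -0.25 (SE 0.54, adjusted p = 0.934), with an SE that includes the spread of the co-culture libraries.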

How the data were processed

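The deposited table holds raw read counts per human Ensembl gene for 37 mouse splenocyte libraries, made by the authors from 3′ reads (QuantSeq with unique molecular identifiers, whose use in counting is not given in the sources used here) by trimming with bbduk, alignment to the human genome GRCh38 with STAR 2.7.10b and counting with featureCounts of Rsubread 2.0.3. Of its rows, 100% carry human identifiers and 0 matched the mouse gene table. Gene names of the 9 chaperones come from the list that defines them. A list of related chaperone genes and lists of cell type markers could not be run, because no source used here pairs the other identifiers with names, and the labelled cell type was therefore not checked. RNA integrity above 7 was required, while the labels quote a range of 2.5 to 9.5.

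Here edgeR 4.0.16 (R 4.3.3) was run with 1 mean per group over all libraries, TMM scaling, filterByExpr with a minimum count of 10, Benjamini-Hochberg adjustment over 5193 rows at 0.05 and edgeR's F test by quasi-likelihood, after tests on simulated data. A mode is the mean of its 4 groups. Named were all 9 chaperones, the 2 rows most correlated with HSP90AA1 and 2 rows high in libraries set apart. The chaperones, the lists and the alternatives were chosen with earlier results of these data known. The study states at least 3 independent repeats, but the labels tie no library to an animal, so p-values measure the spread between libraries, which may be technical in part. Replicate numbers were not used as a block. The alternatives were RLE scaling, no count filter, DESeq2 1.42.0, the replicate block, library sizes without the chaperones, the compared libraries alone, each library left out in turn and the libraries set apart left out. Applying them to washed against cells was added after seeing the data.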

Additional observations from a re-analysis of the deposited data

Results flagged for a closer look

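Each gene was examined in each of the 6 arms of mode and oxygen for a highest or lowest library far from the others, by the gap to its nearest neighbour over the arm's range, which made 48 sets, of which 12 were picked out. Chance would pick out about 1 in 20 sets if they were independent and each held normally distributed values of 1 population. These sets are not so, since CPM was not log-transformed and an arm pools libraries with and without SPP1. The genes of a library also vary together, and HSP90AA1 in the co-culture libraries chose the list. The values are therefore a description and their number is no test.

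Cells hypoxia no-SPP1 replicate 2 was picked out in 6 genes. It had 28033 CPM of HSP90AA1 (nearest other library 2521 CPM), 22050 CPM of HSP90AB1 (10510 CPM), 3989 CPM of HSPD1 (1767 CPM), 79.6 CPM of DNAJB1 (25.6 CPM) and 616 CPM of DNAJA1 (253 CPM), all the highest of their arm, and 237 CPM of HSPA4 (407 CPM), the lowest.

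Washed hypoxia SPP1 replicate 1 was picked out in 3 genes, with 43845 CPM of HSP90AA1 (nearest 12174 CPM), 29161 CPM of HSP90AB1 (14552 CPM) and, as the lowest, 233 CPM of HSPA4 (418 CPM). In both libraries high HSP90 genes went with low HSPA4.

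The other 3 were single genes. HSPD1 was lowest in medium hypoxia no-SPP1 replicate 1, at 1527 CPM (3707 CPM). HSPH1, which rests on few counts, was highest in washed normoxia no-SPP1 replicate 3, at 42.5 CPM (32.4 CPM), and in washed hypoxia no-SPP1 replicate 2, at 31.3 CPM (18.9 CPM).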

How the results depend on the processing

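Testing every row with a count gave 5 chaperones called in cells against naive, 1 in cells against medium and 1 for the difference of the hypoxia effect between washed and cells, in place of 3, 2 and 0. With the replicate block 1 was called in cells against medium, and DNAJB1 in washed against naive had an adjusted p of 0.0587. The block changed no other call. The numbers do not pair the libraries, as deviations of same-numbered libraries had a median correlation of 0.00679 over 210 pairs (different numbers -0.00124), and 13 of 37 libraries correlated best with their own number. Without the 4 libraries set apart on the second component 5 were called in cells against naive. Leaving out each library in turn gave 2 to 5 calls in medium against naive, 1 to 4 in cells against naive, 3 to 7 in washed against naive, 1 to 3 in cells against medium, 3 to 5 in washed against medium and 0 to 1 for hypoxia in cells. The shares of all identifiers called under these alternatives are not given here, so the counts of chaperones are descriptions. The cause was not tested for any of these changes. No fold change of a called gene changed sign, and of 515 such values under an alternative 67 lost the call. HSPA4 against medium was lost in 17 of 31 alternatives for cells and 18 of 31 for washed, HSPA8 for hypoxia in cells in 10 of 19 and DNAJB1 in washed against naive in 10 of 21. Naive has 2 libraries, HSPH1 there 5 and 3 counts, and the median depth of 1063211 counts limits HSPH1 and DNAJB1 most.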
